A study of Homo sapiens with 24 samples.

Results

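The chaperonin TRiC, also called CCT, was followed through the mRNAs of its subunit genes TCP1, CCT2, CCT3, CCT4, CCT5, CCT6A, CCT7 and CCT8 in A2780 cells, an established epithelial ovarian cancer line. The genes were chosen by symbol as the complete set that builds the general form of the complex, and they are 8 of 22446 gene symbols in the deposited table. All 8 were found, each on 1 row, and all 8 passed the filter on low values, as did 11933 symbols in all. At 6 days of culture the mRNAs of all 8 subunits were lower than at 48 hr, by a log2 fold change of -0.28 to -1.19 in hypoxia and of -0.44 to -1.23 in normoxia. All 8 were called lower in each oxygen condition, as were 32.4% of tested genes. Between hypoxia and normoxia at the same time, 1 subunit passed the test, CCT3 at 6 days, with a log2 fold change of -0.50. In that comparison 42.2% of tested genes passed and 18.3% were called lower. The call of CCT3 did not hold without library 10 or without library 12 (log2 fold change -0.45 in each case).

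TRiC is a barrel of stacked rings in the cytosol in which newly made proteins fold, driven by ATP. Each ring holds every subunit, at a fixed place, and the subunits differ in how they bind substrates and ATP. Actins and tubulins depend on it, prefoldin and phosducin-like proteins work with it, and the von Hippel-Lindau protein VHL, which marks HIF-1 alpha for destruction when oxygen is present, is among its substrates.

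The 6 groups had 2 libraries each. Hypoxia libraries 3 and 4 (6 hr), 7 and 8 (48 hr) and 11 and 12 (6 days) came from cells in a chamber at 1% O2. Normoxia libraries 1 and 2 (6 hr), 5 and 6 (48 hr) and 9 and 10 (6 days) came from control cells, whose oxygen level the labels do not state. All cells were A2780, with no genetic change named in the labels, grown at 5% CO2 in RPMI with fetal bovine serum at 10 to 15%. No label states that both libraries of a group are independent cultures. The p-values below therefore rest on the spread between the 2 libraries of a group, which may be technical. This spread was pooled over all 6 groups and moderated with that of other genes. The difference between libraries 1 and 2 thus also enters the tests at 48 hr and at 6 days.

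The deposited unit is RPKM, the number of reads on a gene scaled to its length in kilobases and to the reads of the library in M (1e6). The reads implied by the table of precursor miRNAs ran from 25.1 to 51.7 M per library. The lowest subunit value, 45.1 RPKM for CCT5 in library 12, stands for about 1132 reads per kilobase if both tables share a denominator. The median absolute log2 difference over tested genes was 0.20 between libraries 1 and 2 (normoxia, 6 hr) and 0.09 to 0.13 in the other pairs, and the subunits were higher in library 1 by a median of 0.31. Of 5 genes used to check the oxygen label (CA9, PDK1, SLC2A1, BNIP3 and ADM), 4 were called higher in hypoxia at 6 hr and all 5 at 48 hr and at 6 days. Of 9 markers of ovarian epithelium, EPCAM (33.2 to 42.2 RPKM) and KRT18 (23.7 to 38.2 RPKM) were well above 1 RPKM, KRT8 had 0.615 to 1.96 RPKM, and PAX8, KRT7, KRT19, MUC16, WT1 and CDH1 stayed at or below 0.246 RPKM. None of 5 leukocyte and 4 endothelial markers reached the filter. Of 5 fibroblast markers, DCN and LUM were tested and both were higher in hypoxia at 48 hr and at 6 days, and library 4 (hypoxia, 6 hr) alone held COL1A1 and COL1A2 at 2.50 and 3.06 RPKM.

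RefSeq's promoter table (GRCh38.p14) had an entry for 7 of the 8 subunits, and none for CCT6A. The 250 bases before the start of 5 genes are shown, 5′ to 3′ on the strand of the gene: TCP1, CCT2, CCT3, CCT4 and CCT8. TCP1 and CCT2 had the lowest log2 fold changes at 6 days against 48 hr in normoxia among genes with an entry. CCT4 and CCT8 had the least change, and CCT3 was the only subunit called with oxygen, at 6 days. Capitals mark a heat shock element (GAANNTTC or TTCNNGAA, the letters bound by HSF1), the core of the hypoxia response element (ACGTG or GCGTG, the letters bound by HIF) and the CCAAT box (CCAAT), each searched on both strands.
TCP1, chr6:159789603-159789852, minus strand: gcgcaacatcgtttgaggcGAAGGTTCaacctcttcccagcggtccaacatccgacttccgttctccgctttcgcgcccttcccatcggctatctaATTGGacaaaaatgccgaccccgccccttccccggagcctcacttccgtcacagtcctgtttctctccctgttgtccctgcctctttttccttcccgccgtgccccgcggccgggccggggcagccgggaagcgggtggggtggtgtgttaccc
CCT2, chr12:69585209-69585458, plus strand: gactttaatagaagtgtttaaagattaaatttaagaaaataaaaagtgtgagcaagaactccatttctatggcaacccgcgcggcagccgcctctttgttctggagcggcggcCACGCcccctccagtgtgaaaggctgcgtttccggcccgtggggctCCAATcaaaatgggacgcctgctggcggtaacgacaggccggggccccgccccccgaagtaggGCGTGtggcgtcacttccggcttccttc
CCT3, chr1:156338293-156338542, minus strand: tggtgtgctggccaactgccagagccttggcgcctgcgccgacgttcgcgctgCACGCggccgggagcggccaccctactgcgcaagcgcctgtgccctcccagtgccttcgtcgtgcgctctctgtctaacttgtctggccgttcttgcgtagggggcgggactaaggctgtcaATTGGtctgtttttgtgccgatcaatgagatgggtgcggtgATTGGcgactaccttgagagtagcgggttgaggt
CCT4, chr2:61888672-61888921, minus strand: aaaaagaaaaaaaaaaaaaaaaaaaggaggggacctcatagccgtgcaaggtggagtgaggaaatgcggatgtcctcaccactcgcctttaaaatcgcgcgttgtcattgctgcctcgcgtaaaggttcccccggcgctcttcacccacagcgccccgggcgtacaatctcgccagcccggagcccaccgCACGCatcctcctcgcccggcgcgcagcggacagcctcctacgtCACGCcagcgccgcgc
CCT8, chr21:29073649-29073898, minus strand: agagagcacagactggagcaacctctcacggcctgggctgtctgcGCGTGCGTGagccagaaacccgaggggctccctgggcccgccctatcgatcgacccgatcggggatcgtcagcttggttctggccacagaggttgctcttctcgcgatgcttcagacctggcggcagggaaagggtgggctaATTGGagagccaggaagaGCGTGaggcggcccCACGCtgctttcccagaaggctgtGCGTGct
Over the 300 bases that the table holds for each gene, 250 before and 50 after the start, the heat shock element was found in 1 of 7 subunits, TCP1, against 9.83% of the 8034 promoters of tested genes. The hypoxia core was found in 5 of 7 subunits, the 5 shown, against 65.1% of those promoters. In TCP1 its only match, and in CCT8 the last of 6, lay after the start and outside the letters shown. The CCAAT box was found in 4 of 7 (TCP1, CCT2, CCT3 and CCT8) against 37.4%, the ETS core CCGGAAG in 1 of 7 (CCT2) against 20.5%, and the MYC E-box CACGTG and the TATA letters TATAAA in 0 of 7 against 10.8% and 4.82%. The median GC content was 63.3% over the 7 subunits and 58.3% over all 27305 promoters. In CCT5 the letters before the listed start hold the start codon and first coding letters of the gene. Its window therefore lies inside the gene, and its lack of these motifs does not describe its upstream promoter. The counts and the median of the 7 include this window. A match describes the letters in these windows and is no evidence of binding.

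TCP1, the founding subunit also called CCT1, had in hypoxia 141 and 137 RPKM at 6 hr, 144 and 140.2 at 48 hr and 66.8 and 62.5 at 6 days. In normoxia TCP1 had 145 and 117 RPKM at 6 hr, 160.4 and 153 at 48 hr and 67.6 and 65.7 at 6 days. The 4 libraries of 6 days lay far below the 8 earlier ones, and hypoxia and normoxia overlapped at 6 hr and at 6 days. TCP1 fell at 6 days relative to 48 hr in hypoxia (log2 fold change -1.13, SE 0.11, adjusted p 9.21e-06) and in normoxia (-1.23, SE 0.11, adjusted p 6.1e-06), which is 2.19 and 2.34 times lower. These are the values of limma on log2(RPKM + 0.5), as are all fold changes below, with Benjamini-Hochberg adjustment over all genes and a threshold of 0.05.

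CCT2, a ring subunit also described as an autophagy receptor for protein aggregates, had in hypoxia 114 and 116 RPKM at 6 hr, 114 and 109.7 at 48 hr and 69.7 and 56.7 at 6 days. In normoxia CCT2 had 129 and 96.8 RPKM at 6 hr, 133 and 135 at 48 hr and 63.4 and 56.5 at 6 days. Its highest 6-day library was still below its lowest earlier one. It fell at 6 days relative to 48 hr by 0.83 on the log2 scale in hypoxia (adjusted p 0.000426) and by 1.16 in normoxia (adjusted p 4.48e-05).

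CCT3 was the most abundant subunit before 6 days. It had in hypoxia 226 and 183 RPKM at 6 hr, 181 and 179 at 48 hr and 81.3 and 76.6 at 6 days, against 204 and 159.7, 205 and 208, and 108 and 116 RPKM in normoxia at the same times. Both hypoxia libraries of 6 days lay below both normoxia libraries. The log2 fold change of hypoxia against normoxia at 6 days was -0.50 (SE 0.14, 95% interval -0.80 to -0.19, adjusted p 0.0147), with means of 79.0 ± 3.35 RPKM in hypoxia and 112 ± 5.78 RPKM in normoxia (SD, n = 2 each). The call of CCT3 ended without library 10 (-0.45, adjusted p 0.0919) and without library 12 (-0.45, adjusted p 0.0828). Relative to 48 hr, CCT3 fell by 1.19 in hypoxia (adjusted p 2.81e-05) and by 0.88 in normoxia (adjusted p 0.000257).

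CCT4, among the subunits known from yeast to bind ATP tightly, had in hypoxia 105 and 108 RPKM at 6 hr, 104 and 96.0 at 48 hr and 78.7 and 86.1 at 6 days. In normoxia CCT4 had 119.9 and 111 RPKM at 6 hr, 117 and 115 at 48 hr and 87.5 and 83.6 at 6 days. Its libraries of 6 days were also the lowest, by a smaller step. The log2 fold change at 6 days relative to 48 hr was -0.28 in hypoxia (95% interval -0.49 to -0.06, adjusted p 0.0296) and -0.44 in normoxia (-0.66 to -0.22, adjusted p 0.00266). Both calls of CCT4 ended with quantile normalization (-0.11, adjusted p 0.355 in hypoxia and -0.21, adjusted p 0.0869 in normoxia). The call in hypoxia also ended without library 7 (-0.22, adjusted p 0.180), library 8 (-0.33, adjusted p 0.0572) or library 11 (-0.21, adjusted p 0.185).

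CCT5, a subunit in which a mutation causes a hereditary sensory neuropathy, was the least abundant member in 11 of 12 libraries. It had in hypoxia 97.0 and 81.9 RPKM at 6 hr, 94.8 and 91.3 at 48 hr and 48.6 and 45.1 at 6 days, against 94.5 and 69.0, 106 and 98.5, and 59.3 and 58.8 RPKM in normoxia. Its 6-day libraries were below all others, and those of hypoxia below those of normoxia. CCT5 fell at 6 days relative to 48 hr by 0.98 in hypoxia (adjusted p 0.000119) and by 0.79 in normoxia (adjusted p 0.000612).

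CCT6A, whose close copies include CCT6B, expressed in testis, and several pseudogenes, had in hypoxia 141 and 138 RPKM at 6 hr, 132 and 126 at 48 hr and 58.5 and 59.8 at 6 days. In normoxia CCT6A had 158 and 128 RPKM at 6 hr, 160.1 and 160.3 at 48 hr and 70.0 and 71.4 at 6 days. Its libraries of 6 days were far below the earlier ones, with hypoxia below normoxia at 48 hr and at 6 days. It fell at 6 days relative to 48 hr by 1.12 in hypoxia (adjusted p 8.96e-06) and by 1.17 in normoxia (adjusted p 7.22e-06). Reads of near-identical copies could be split or moved between rows by the authors' counting, so the level of CCT6A is uncertain to that extent: the rows of CCT6P1 and CCT6P3 held 1.39 to 2.25 and 4.22 to 5.23 RPKM, and CCT6B held at most 1.63 RPKM.

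CCT7 had in hypoxia 132 and 117 RPKM at 6 hr, 130.1 and 124 at 48 hr and 72.4 and 62.9 at 6 days, against 119 and 103, 153 and 135, and 75.7 and 71.6 RPKM in normoxia. Both conditions overlapped at 6 hr and at 6 days. It fell at 6 days relative to 48 hr by 0.91 in hypoxia (adjusted p 7.28e-05) and by 0.96 in normoxia (adjusted p 5.35e-05). CCT7 is the subunit whose course was nearest to the mean course of all 8.

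CCT8, whose raised level was reported to favour assembly of the complex in human stem cells and in worms, had in hypoxia 142 and 136 RPKM at 6 hr, 137 and 130.0 at 48 hr and 99.1 and 101 at 6 days. In normoxia CCT8 had 156 and 125 RPKM at 6 hr, 154 and 147 at 48 hr and 106 and 103 at 6 days. Its libraries of 6 days lay below all earlier ones, by a step nearly as small as that of CCT4. It fell at 6 days relative to 48 hr by 0.41 in hypoxia (adjusted p 0.00901) and by 0.53 in normoxia (adjusted p 0.00243). The call of CCT8 in hypoxia ended without library 7 (-0.38, adjusted p 0.0627).

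**Figure D1:**
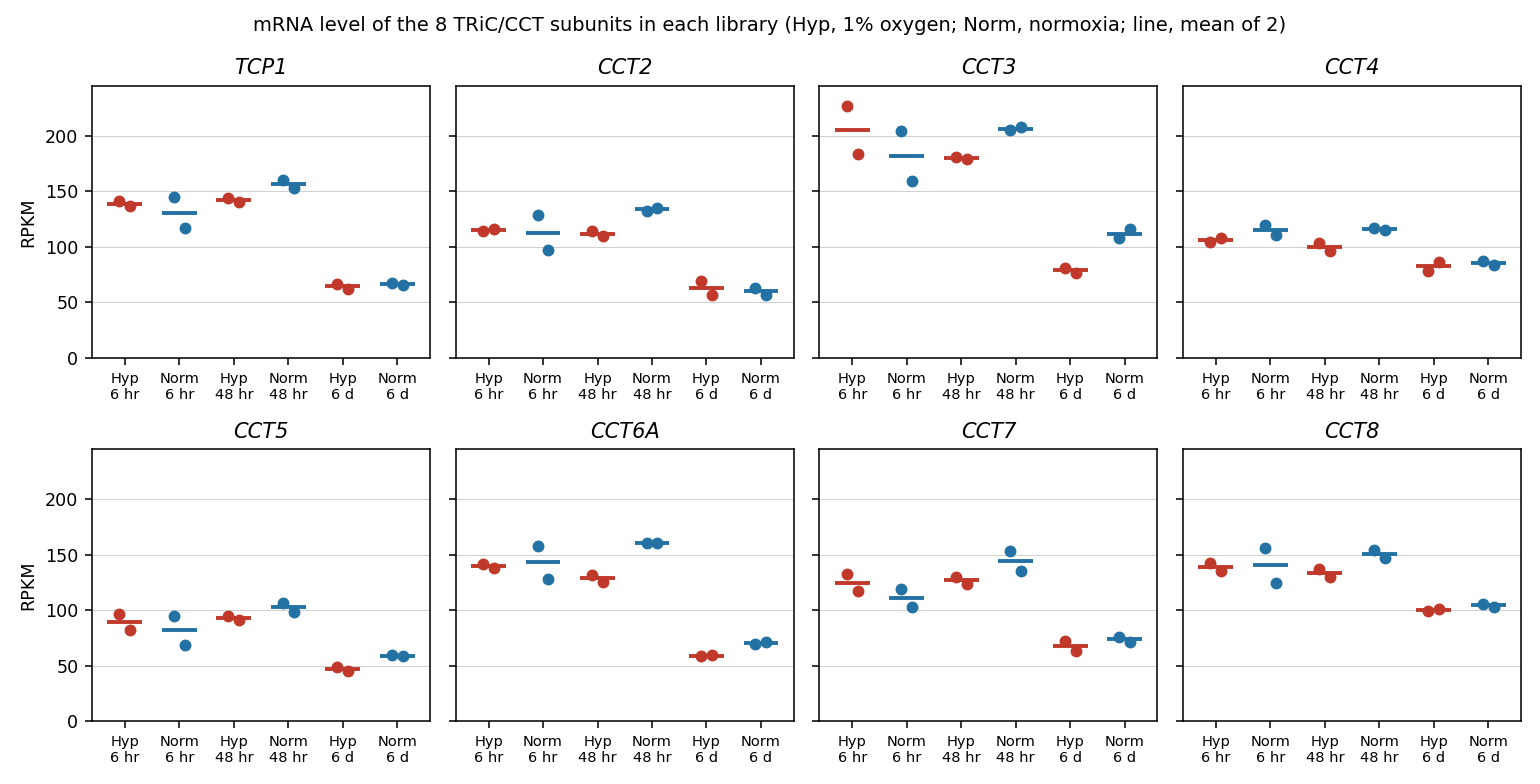
Level of each subunit mRNA in RPKM (vertical axis, from 0) in every library, 1 panel a gene; groups run along the horizontal axis, red points are hypoxia, blue points normoxia, and lines are means of 2 libraries. The 4 libraries of 6 days lie below the 8 earlier ones in all 8 panels, and the step is smallest for CCT4 and CCT8.

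Time in culture was compared within each oxygen condition. All 8 subunits were called lower at 6 days than at 48 hr in hypoxia, where 32.4% of all tested genes were, and all 8 were called lower in normoxia, where 32.4% of tested genes were as well. The median log2 fold change of the 8 was -0.94 in hypoxia and -0.92 in normoxia, beside medians of -0.01 and -0.04 over all tested genes. The 95% intervals of CCT4 (-0.66 to -0.22) and CCT8 (-0.78 to -0.27) in normoxia did not reach those of TCP1 (-1.48 to -0.98), CCT2 (-1.47 to -0.84) and CCT6A (-1.42 to -0.93). In hypoxia those of CCT4 (-0.49 to -0.06) and CCT8 (-0.67 to -0.16) did not reach those of TCP1 (-1.38 to -0.88), CCT3 (-1.49 to -0.88) and CCT6A (-1.36 to -0.87). Differences between genes were not tested beyond these intervals. In all 8 subunits the 4 libraries of 6 days lay below the 8 earlier ones, which held for 21.5% of tested genes. Some fibroblast and epithelial markers moved over the same interval. The 5 fibroblast markers summed to 37.1 to 40.0 RPKM at 6 days and 30.1 to 33.3 RPKM at 48 hr in hypoxia, and to 26.4 to 26.9 RPKM and 17.5 to 18.9 RPKM in normoxia. Of the 2 tested, DCN was called higher at 6 days in both conditions (0.40 in hypoxia and 0.62 in normoxia) and LUM in neither. PDGFRB stayed near 0, and COL1A1 and COL1A2 stayed below 1 RPKM at both times. DCN and LUM thus made up nearly all of these sums. The 9 epithelial markers summed to 66.1 to 67.1 RPKM at 6 days and 71.8 to 76.6 RPKM at 48 hr in hypoxia, and to 61.4 to 64.2 RPKM and 71.8 to 74.4 RPKM in normoxia. Of the 3 tested, KRT18 was called lower in both conditions (-0.37 in hypoxia and -0.27 in normoxia), KRT8 in hypoxia (-0.55), and EPCAM in neither. The part of these markers in the result was not tested. In bulk RNA, fewer cells with the mRNA and less mRNA per cell cannot be told apart, and RPKM gives a share of the RNA, not an amount per cell.

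No such change was called between the earlier times. At 48 hr against 6 hr, 0 of 8 subunits passed limma's test in hypoxia, where 5.84% of tested genes did, with 0 at an unadjusted p under 0.05 (22.3% of tested genes) and log2 fold changes from -0.18 to 0.06. In normoxia 0 of 8 passed, where 0.0922% of tested genes did, with 3 at an unadjusted p under 0.05 (TCP1, CCT5 and CCT7, where 16.4% of tested genes were) and log2 fold changes from 0.01 to 0.38. The lack of calls in normoxia did not hold without library 1, the higher of the normoxia libraries of 6 hr. The median log2 fold change over all tested genes was then 0.15, beside 0.08 with all 12 libraries.

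Low oxygen was tested at each time. At 6 hr, 0 of 8 subunits passed limma's test, where 3.59% of tested genes did, and 0 had an unadjusted p under 0.05, where 16.8% of tested genes did. Log2 fold changes ran from -0.11 (CCT4, 95% interval -0.33 to 0.11) to 0.17 (CCT3, -0.13 to 0.48). TCP1 (0.10), CCT2 (0.05), CCT5 (0.14), CCT7 (0.17), CCT6A (-0.03) and CCT8 (-0.01) lay between, and hypoxia libraries overlapped those of normoxia in 7 of 8 subunits and in 63.0% of tested genes.

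At 48 hr every subunit was lower in both hypoxia libraries than in either normoxia library, and none of these differences passed the test. Of all tested genes, 29.6% were lower in both hypoxia libraries in this way. Log2 fold changes ran from -0.14 to -0.31, with a median of -0.19 beside 0.01 over all tested genes. The number called was 0 of 8, where 12.1% of tested genes were called and 2.89% were called lower, and 2 had an unadjusted p under 0.05, a share near the 26.8% of all tested genes. These were CCT6A (-0.31, 95% interval -0.56 to -0.07, adjusted p 0.0950) and CCT4 (-0.22, -0.44 to -0.0012, adjusted p 0.184). CCT6A had 129 ± 4.69 RPKM in hypoxia and 160.2 ± 0.181 RPKM in normoxia (SD, n = 2 each), and it passed when only the 4 libraries of 48 hr were fitted (adjusted p 0.0472) and without library 1 or library 2 (adjusted p 0.0215 for each). CCT2 (-0.26, -0.57 to 0.06), CCT3 (-0.20, -0.50 to 0.11), CCT7 (-0.18, -0.45 to 0.09), CCT8 (-0.17, -0.43 to 0.08), TCP1 (-0.14, -0.39 to 0.11) and CCT5 (-0.14, -0.45 to 0.17) had intervals that include 0. The fibroblast markers DCN and LUM moved in the other direction at this time: the 5 fibroblast markers summed to 30.1 to 33.3 RPKM in hypoxia and 17.5 to 18.9 RPKM in normoxia, PDGFRB was at most 0.153 RPKM in any library, and their part in the result was not tested.

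At 6 days 1 of 8 subunits was called, CCT3, lower in hypoxia, where 42.2% of tested genes were called and 18.3% were called lower. CCT5 (-0.33, 95% interval -0.64 to -0.02, adjusted p 0.0819) and CCT6A (-0.26, -0.50 to -0.01, adjusted p 0.0876) had unadjusted p under 0.05, as did 50.4% of tested genes, and no overlap between the oxygen conditions. With CCT3 and CCT8, 4 of 8 subunits were lower in both hypoxia libraries, against 34.1% of tested genes. Both CCT5 and CCT6A passed when only the 4 libraries of 6 days were fitted (adjusted p 0.0170 for CCT5 and 0.0364 for CCT6A) and without library 1 or library 2 (adjusted p 0.0177 for CCT5 and 0.0209 for CCT6A). CCT7 (-0.12, -0.39 to 0.14), CCT8 (-0.06, -0.32 to 0.19), CCT4 (-0.05, -0.27 to 0.16), TCP1 (-0.04, -0.29 to 0.20) and CCT2 (0.07, -0.24 to 0.38) had intervals on both sides of 0. At this time the 5 fibroblast markers summed to 37.1 to 40.0 RPKM in hypoxia and 26.4 to 26.9 RPKM in normoxia, and their part in the result was not tested.

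The oxygen difference was not called to change with time for any subunit. For 6 days minus 48 hr, 0 of 8 passed limma's test, where 10.7% of tested genes did, and for 48 hr minus 6 hr, 0 of 8, where 0.528% did, with 0 at an unadjusted p under 0.05 in each, where 28.4% and 10.8% of tested genes were in the same order. The difference for CCT3 between 6 days and 48 hr was -0.30 (95% interval -0.74 to 0.13, adjusted p 0.343), so its call at 6 days alone does not show a time-specific effect. With time and oxygen as additive terms, 0 of 8 were called, where 22.5% of tested genes were, and CCT6A had an unadjusted p under 0.05, as did 37.2% of tested genes. All 8 additive estimates were below 0, from -0.03 to -0.20, as were those of 44.7% of tested genes. The comparisons of hypoxia with normoxia and of 6 days with 48 hr share libraries, so their values are set side by side and not combined.

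**Figure D2:**
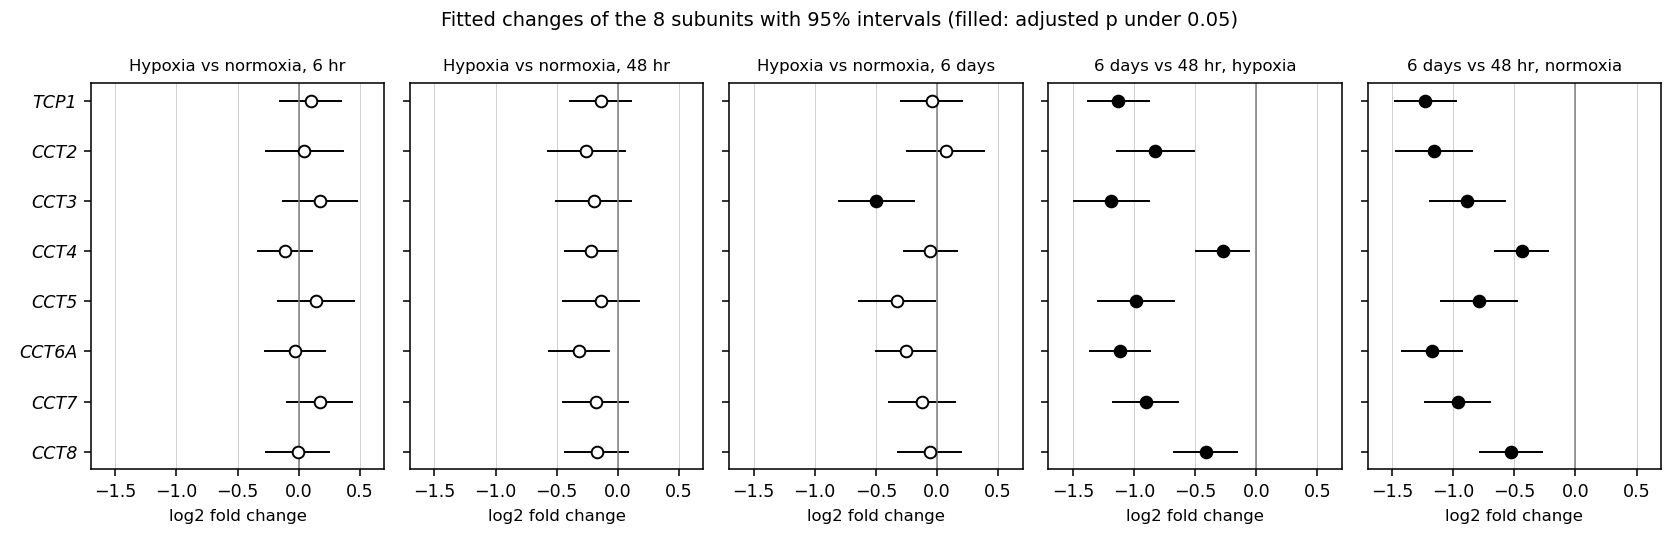
Log2 fold change (horizontal axis) of each subunit with its 95% interval in 5 comparisons; filled points passed an adjusted p of 0.05. In the oxygen comparisons only CCT3 at 6 days is filled, and all 8 points are filled and below 0 in both comparisons of 6 days with 48 hr.

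The make-up of the subunit pool is described by shares, without a test. Summed over the 8 genes, the level was 1058 ± 58.2, 1016 ± 29.1 and 563 ± 17.4 RPKM in hypoxia at 6 hr, 48 hr and 6 days, and 1017 ± 153, 1171 ± 26.5 and 632 ± 7.17 RPKM in normoxia (SD, n = 2 each). CCT3 held the highest share of this sum in all 8 libraries before 6 days, 17.2 to 20.6%. At 6 days it held 14.1 and 13.9% in hypoxia, against 16.9 and 18.5% in normoxia. CCT8 held 17.2 and 18.3% in hypoxia and 16.6 and 16.4% in normoxia at 6 days, and 12.7 to 13.9% earlier. CCT4 held 13.7 and 15.6% in hypoxia and 13.7 and 13.3% in normoxia at 6 days, and 9.53 to 12.2% earlier. CCT8 was thus the most abundant subunit in hypoxia at 6 days, where CCT4 and CCT3, next in order, overlapped each other, while CCT3 kept the first place in normoxia with CCT8 next. The ratio of the most to the least abundant subunit stayed between 1.82 and 2.33 in every library.

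**Figure D3:**
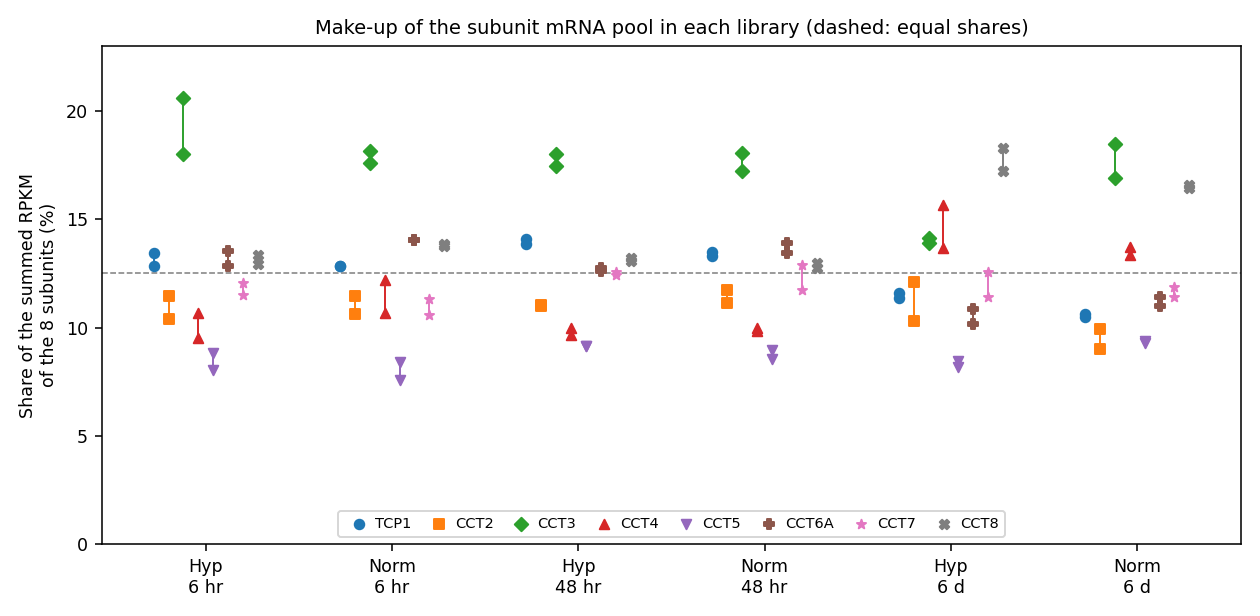
Share of each subunit in the summed RPKM of all 8 (vertical axis, percent) in every library, with groups along the horizontal axis and a vertical line joining the 2 libraries of a group. CCT3 stands highest before 6 days and CCT8 in hypoxia at 6 days, with CCT4 and CCT8 above the dashed line of equal shares in all 4 libraries of 6 days.

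Other folding machines moved with time as well. Of 11 tested cytosolic heat-shock chaperones, 9 were called lower at 6 days than at 48 hr in hypoxia and 11 in normoxia, with median log2 fold changes of -1.49 and -1.92. Of all tested genes, 32.4% were called lower in each condition, and 30.4% were called higher in hypoxia and 27.0% in normoxia. HSPA8, the constitutive Hsp70 that hands proteins to TRiC, had 147 ± 10.7 RPKM at 6 days and 907 ± 21.2 RPKM at 48 hr in hypoxia (log2 fold change -2.62) and 95.3 ± 2.29 and 1141 ± 0.0566 RPKM in normoxia (-3.58). In normoxia HSPA1A and HSPA1B, the inducible Hsp70 genes, which are near-identical copies and so uncertain one by one, changed by -2.37 and -2.34, and their partner DNAJA1 by -2.04. Of 6 other chaperonin genes tested, 3 rose and 2 fell in hypoxia and 3 rose and 3 fell in normoxia. The mitochondrial chaperonin pair fell in both: HSPD1, the ring subunit, by 0.80 in hypoxia and 0.65 in normoxia, and its lid HSPE1 by 1.65 and 2.18 in the same order. CCT6B, the testis form of CCT6A, rose from a very low level, with 1.52 ± 0.123 RPKM at 6 days and 0.286 ± 0.025 RPKM at 48 hr in hypoxia and 1.51 ± 0.177 and 0.315 ± 0.105 RPKM in normoxia, and BBS12, a chaperonin-like protein of the basal body, rose by 1.05 in normoxia.

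Several heat-shock chaperones were higher in hypoxia at 6 days. Of the 11, 5 were called higher and 0 lower, where 23.9% of tested genes were called higher, and their median log2 fold change was 0.26 beside 0.04 over all tested genes and -0.09 over the 8 subunits. DNAJB1, an Hsp40 partner of Hsp70, had 18.3 ± 1.26 RPKM in hypoxia and 7.80 ± 0.270 RPKM in normoxia (log2 fold change 1.18, adjusted p 6.1e-06). HSPA1A (1.04), HSPA1B (0.97) and HSPA8 (0.62, adjusted p 0.00931) followed, and the call of HSPA8 ended without library 9 (adjusted p 0.0627) or library 11 (adjusted p 0.0744). Among the other chaperonins HSPE1 was called (0.37, adjusted p 0.00548), and its call ended without library 10 (0.31, adjusted p 0.0644).

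Some cofactors that work with TRiC were called over time and few with oxygen. The prefoldin hexamer delivers actin and tubulin chains. Of 9 prefoldin and prefoldin-like genes, 4 fell at 6 days relative to 48 hr in hypoxia and 5 in normoxia, and 0 rose. The medians were -0.31 and -0.42, and 32.4% of tested genes were called lower in each condition. The genes that fell in normoxia included PFDN6 (-0.80), PFDN2 (-0.72), VBP1 (-0.62) and C19orf2 (-0.42), an older symbol of the prefoldin-like URI1. The call of C19orf2 ended with quantile normalization (adjusted p 0.0612). PFDN4 was the only one of the 9 called with oxygen at 6 days (0.35, adjusted p 0.0215). Of all tested genes, 42.2% were called in that comparison and 23.9% were called higher. The call of PFDN4 ended without library 10, 11 or 12 (adjusted p 0.136, 0.101 and 0.0654 in that order). Of 3 tested phosducin-like genes, PDCL3, which binds TRiC and modulates its folding of actin and tubulin, fell by 1.01 in hypoxia and 1.19 in normoxia. TXNDC9 changed by -0.38 in normoxia (adjusted p 0.0381), a call that ended without library 5, 6, 9 or 10 (adjusted p 0.106, 0.117, 0.172 and 0.0666 in that order) and with quantile normalization (-0.14, adjusted p 0.318). PDCL was higher in hypoxia at 6 days (0.35, adjusted p 0.0132), a call that ended without library 9, 11 or 12 (adjusted p 0.133, 0.0515 and 0.0686 in that order).

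Among genes of the main substrates, actins fell and tubulins moved in both directions. All 5 tested actins were called lower at 6 days in both conditions, with a median log2 fold change of -1.47 in hypoxia and -1.45 in normoxia. ACTB, the main cytoplasmic actin, changed by -1.62 in hypoxia and -1.51 in normoxia, and in normoxia ACTG1 changed by -1.45, ACTA1 by -1.15 and ACTA2 by -1.91. Of 16 tested tubulins, 8 fell and 3 rose in hypoxia (median -0.61) and 11 fell and 2 rose in normoxia (median -0.80), where 32.4% of tested genes were called lower in each condition, and 30.4% were called higher in hypoxia and 27.0% in normoxia. TUBB, a main beta tubulin, changed by -1.63 in hypoxia and -1.41 in normoxia, and TUBB2C, an older symbol of TUBB4B, by -1.57 and the nucleating gamma tubulin TUBG1 by -1.23 in normoxia. TUBE1, the epsilon tubulin of centrioles, rose in normoxia, with 14.5 ± 0.754 RPKM at 6 days and 3.42 ± 0.156 RPKM at 48 hr (1.94). No test compared substrates with subunits.

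With oxygen at 6 days, 4 of 16 tubulins were called higher in hypoxia and 0 lower. Of all tested genes, 23.9% were called higher and 18.3% lower. TUBB2B, a neuronal beta tubulin, had 10.5 ± 0.436 RPKM in hypoxia and 3.70 ± 0.238 RPKM in normoxia (1.39, adjusted p 1.76e-05), and TUBA4A 3.83 ± 0.00933 and 1.37 ± 0.113 RPKM (1.21, adjusted p 5.51e-05). TUBB3 (0.72, adjusted p 0.0161) lost its call without library 9 (adjusted p 0.143) or 11 (adjusted p 0.0998). TUBB2A (0.41, adjusted p 0.0120) lost its call without library 10 (adjusted p 0.0890) or 11 (adjusted p 0.110). Tubulins share long stretches of sequence, so single rows are uncertain. Among 5 actins, ACTA2 was called higher (0.45, adjusted p 0.00643), a call that ended without library 9 (adjusted p 0.0733).

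Of 6 tubulin cofactors, which assemble the tubulin dimer after TRiC releases its chains, 2 were called lower in hypoxia at 6 days, where 18.3% of tested genes were. TBCD had 5.33 ± 0.0914 RPKM in hypoxia and 9.78 ± 1.04 RPKM in normoxia (-0.81, adjusted p 5.69e-05). ARL2 (-0.40, adjusted p 0.0402) lost its call without library 5, 6, 7, 8, 9, 10 or 12, with adjusted p from 0.0509 to 0.240, and with no filter on low values (adjusted p 0.0745). Over time 3 cofactors fell and 0 rose in hypoxia, and 2 fell and 1 rose in normoxia, beside 32.4% of tested genes called lower in each condition. The normoxia calls were TBCD (-0.47, adjusted p 0.00111), ARL2 (0.50, adjusted p 0.00971) and TBCC (-0.30, adjusted p 0.0298). That of ARL2 ended without library 6 (adjusted p 0.0648) or 10 (adjusted p 0.0750). That of TBCC ended without library 5, 6, 9 or 10 (adjusted p 0.111, 0.0825, 0.0634 and 0.138 in that order), with quantile normalization (-0.22, adjusted p 0.0718) and with no filter on low values (adjusted p 0.0510).

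VHL, the substrate that ties TRiC to oxygen sensing, was lower in hypoxia at 6 days, with 4.04 and 4.29 RPKM in hypoxia and 7.11 and 6.89 RPKM in normoxia, and no overlap (-0.69, SE 0.14, adjusted p 0.00319). Relative to 48 hr it changed by -0.28 in hypoxia (adjusted p 0.111) and by 0.28 in normoxia (adjusted p 0.115), and neither passed. Both passed when only the groups compared were fitted (adjusted p 0.0178 and 0.0374 in that order), and without library 1 (adjusted p 0.0349 and 0.0364) or library 2 (adjusted p 0.0352 and 0.0368). Of 17 other known substrates, VHL included, 3 were called higher and 2 lower in hypoxia at 6 days, both below the shares over all tested genes (23.9% higher and 18.3% lower). HDAC3, a histone deacetylase, rose (0.88), as did GNB4, a G protein beta subunit (0.76), and STAT3, a transcription factor (0.76). Over time, 9 of the 17 fell in each condition, and 5 rose in hypoxia and 4 in normoxia, beside 32.4% of tested genes called lower in each, and 30.4% higher in hypoxia and 27.0% in normoxia. In normoxia CCNE1, cyclin E of the entry to S phase, changed by -1.55, the mitotic kinase PLK1 by -0.98 and the anaphase activator CDC20 by -0.90.

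HSF1, a heat-shock transcription factor that activates subunit genes, fell at 6 days relative to 48 hr by 1.04 in hypoxia and by 0.88 in normoxia. MYC fell by 0.96 in hypoxia and by 0.51 in normoxia. HSF2, the other of 3 transcription factors on the list, went the other way. It was called higher at 6 days in hypoxia (0.37) and was not called in normoxia (0.12). Of all tested genes, 32.4% were called lower in each condition, and 30.4% higher in hypoxia and 27.0% in normoxia. None of the 3 was called with oxygen at 6 days, where 42.2% of tested genes were. At that time MYC had 17.3 ± 0.216 RPKM in hypoxia and 19.3 ± 1.46 RPKM in normoxia (-0.15, adjusted p 0.254).

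**Figure D4:**
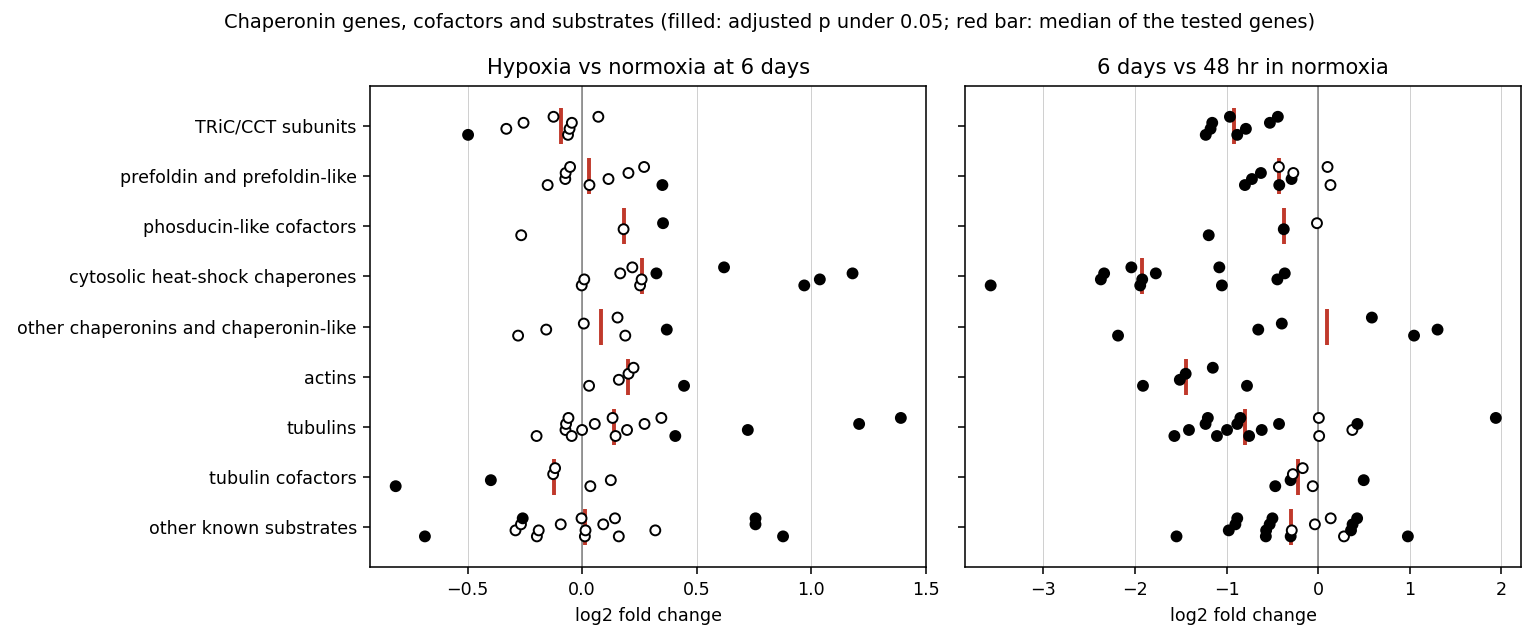
Log2 fold changes (horizontal axes) of every tested gene of each list, hypoxia against normoxia at 6 days on the left and 6 days against 48 hr in normoxia on the right; filled points passed an adjusted p of 0.05 and red bars are list medians. On the right all 8 subunits, all 5 actins and all 11 heat-shock chaperones are filled and below 0, and on the left 1 subunit is filled, below 0, and 5 heat-shock chaperones are filled, above 0.

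MRPL18, a mitochondrial ribosomal protein gene that starts 210 bases upstream of TCP1 on the other strand in RefSeq, had 21.6 and 19.05 RPKM at 6 days and 44.6 and 42.4 RPKM at 48 hr in hypoxia, and 19.2 and 20.6 RPKM at 6 days and 43.3 and 47.3 RPKM at 48 hr in normoxia. It fell by 1.08 in hypoxia and by 1.17 in normoxia, beside -1.13 and -1.23 for TCP1. COMMD1, which starts 280 bases inside CCT4 on the other strand, had 6.47 and 6.36 RPKM at 6 days and 8.43 and 7.36 RPKM at 48 hr in hypoxia, and 8.23 and 8.02 RPKM at 6 days and 8.17 and 7.79 RPKM at 48 hr in normoxia. COMMD1 differed with oxygen at 6 days (-0.32, adjusted p 0.0484), a call that ended without any of 10 libraries (3 to 12), with adjusted p from 0.0551 to 0.164, with no intensity trend (0.0575) and with no filter on low values (0.0806). C1orf182, an older symbol of TSACC, starts 234 bases upstream of CCT3 and did not reach the filter. The authors' counting is not stated to use strand, so reads from overlapping genes cannot be told apart.

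SNORA20, a small nucleolar RNA encoded inside TCP1, rose in hypoxia at 6 days, where its host was not called. It had in hypoxia 748 and 767 RPKM at 6 hr, 812 and 691 at 48 hr and 1525 and 1438 at 6 days, against 1163 and 803, 779.9 and 704, and 686 and 633 RPKM in normoxia. Both hypoxia libraries of 6 days were above all others. The log2 fold change at 6 days was 1.17 in hypoxia against normoxia (SE 0.20, adjusted p 0.000792), while that of TCP1 was -0.04. Relative to 48 hr SNORA20 rose by 0.98 in hypoxia (adjusted p 0.00109) and was not called in normoxia (-0.17, adjusted p 0.478). SNORA15, inside CCT6A, had 123 ± 39.6 RPKM in hypoxia and 81.8 ± 10.1 RPKM in normoxia at 6 days (0.55, adjusted p 0.116). SNORA15 passed without library 1 (adjusted p 0.0490), library 2 (0.0490) or library 12 (0.88, adjusted p 0.0392). SNORA29, also inside TCP1, stayed below 1 RPKM. Reads of these small RNAs and of unspliced RNA of their host genes cannot be told apart in the table.

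Among the 8 genes whose course over the 12 libraries lay nearest to the mean course of the subunits were EIF4G2, SOD2, EIF2S1, PRPF4B, POLDIP2, KIAA0020 and DLAT. The measure was the root mean square distance between log2 profiles, each centred on its own mean. It was 0.0561 for EIF4G2, a translation initiation factor, and 0.0665 for DLAT, the acetyltransferase of pyruvate dehydrogenase, against a median of 0.464 over all tested genes outside the complex. The subunits' own distances ran from 0.0750 (CCT7) over 0.0890 (CCT5), 0.107 (CCT2), 0.137 (TCP1), 0.152 (CCT3), 0.154 (CCT6A) and 0.183 (CCT8) to 0.237 (CCT4). The 1st percentile over tested genes outside the complex was 0.106. The 7 genes named lay nearer to the mean course than any subunit. They were picked for the smallest distances, so this nearness and their changes below follow from the choice. In normoxia EIF4G2 had 135 ± 1.12 RPKM at 6 days and 253 ± 4.25 RPKM at 48 hr, a log2 fold change of -0.90, and the 7 genes changed by -0.75 to -1.01.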

How the data were processed

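RNA of 12 libraries was depleted of ribosomal RNA and sequenced on a 5500xl with forward reads of 75 bases, per the labels' protocols. The authors deposited RPKM for each gene symbol, 1 column per library. Partek 6.6 and hg19 are named in the submitters' processing notes without a role. Aligner, transcript models and strand setting: not given in the sources used here. No further normalization was applied. A gene was tested if 2 or more of the 12 libraries reached 1 RPKM, which held for 11933 of 22446. Testing used limma 3.58.1 (R 4.3.3) on log2(RPKM + 0.5), a scale that understates changes of low genes, with 6 group means, all 12 libraries, an intensity trend, two-sided p-values and Benjamini-Hochberg adjustment over all genes within each comparison, threshold 0.05. Residual degrees of freedom were 6, with 5.08 from the prior. The procedure was tested on simulated data.

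Subunits, gene lists and tests were chosen with earlier results of these data known. Lists were written from general knowledge. Named were all subunits, up to 4 called members a list with the largest change at 6 days (with oxygen, or over 48 hr in normoxia), HSF1, MYC and VHL, neighbours starting within 1 kb, small nucleolar RNAs inside a subunit gene, and the 8 nearest profiles; 1 of these profiles and 1 substrate are not reported here. HSF2, from the list of transcription factors, is given beside HSF1 and MYC. Hypoxia values over time are given for some of the named genes. Reads per library were inferred from steps in the deposited precursor RPKM, using 875 of 939 precursors with a known length: 95.2 to 98.9% of values up to 20 reads were whole within 0.05 reads. Promoter sequences came from RefSeq (GRCh38.p14). Plots used matplotlib 3.10.9 under Python 3.11.15. Alternatives were pseudocounts of 0.1 and 1, other filters, no trend, quantile normalization, centring on a trimmed mean (10% from each end), fitting only the groups compared, and leaving out each library.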

Additional observations from a re-analysis of the deposited data

Results flagged for a closer look

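None of the 8 subunits was flagged. Only genes named for a comparison of hypoxia with normoxia were looked at, not all named genes. Outside the complex, 8 of them passed limma's test of the difference between times at an adjusted p of 0.05. That difference is the hypoxia effect at 6 days minus that at 48 hr. Of all tested genes, 10.7% passed this test. Apart from SNORA20, the flagged genes were named for a called oxygen difference at 6 days. The same libraries of 6 days enter this test, so the naming favours passing. For SNORA20, inside TCP1, this difference was 1.15 (adjusted p 0.0257), with 1481 RPKM in hypoxia and 660 in normoxia at 6 days and 751 and 742 RPKM at 48 hr. Among heat-shock chaperones it was 0.95 for HSPA8 (adjusted p 0.0239), 0.93 for DNAJB1 (0.00393), 0.87 for HSPA1A (0.0188) and 0.85 for HSPA1B (0.00603). HSPE1, the lid of the mitochondrial chaperonin, had a difference of 0.53 (adjusted p 0.0210), with log2 fold changes of 0.37 at 6 days and -0.16 at 48 hr. GNB4 had a difference of 0.74 (adjusted p 0.00961), with 16.6 RPKM in hypoxia and 9.62 in normoxia at 6 days and 14.7 and 14.5 RPKM at 48 hr. TBCD had a difference of -0.84 (adjusted p 0.0043), with 5.33 RPKM in hypoxia and 9.78 in normoxia at 6 days and 14.0 and 13.7 RPKM at 48 hr. Groups of 2 libraries allow no check for a single outlying library.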

How the results depend on the processing

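All 8 subunits were called lower at 6 days than at 48 hr in normoxia without any 1 library, and 6 to 8 in hypoxia. For hypoxia against normoxia, the subunits called lower at 48 hr were 3 with quantile normalization, 1 with trimmed-mean centring and 1 with only the groups compared, against 0 as reported, and 0 to 1 on leaving out 1 library. At 6 days they were 5, 3 and 3 in the same order, against 1, and 0 (without library 10 or 12) to 3 (without library 1 or 2). Across the times they were 3 with quantile normalization and 2 with trimmed-mean centring, against 0, and 0 to 1 (without library 2). In normoxia at 48 hr against 6 hr, 0 to 4 were called on leaving out 1 library. Lower calls of hypoxia against normoxia also rose over all 11933 tested genes. With quantile normalization, trimmed-mean centring and only the groups compared they were 682, 866 and 629 at 48 hr, against 345 as reported. At 6 days they were 3276, 2821 and 2337, against 2187. Across the times they were 1773 and 1761 with the 2 normalizations, against 851. Quantile normalization also called CCT2 at 48 hr (-0.38, adjusted p 0.0376), CCT7 at 48 hr (-0.29, adjusted p 0.0368) and at 6 days (-0.26, adjusted p 0.0178), and CCT8 at 6 days (-0.23, adjusted p 0.0321). The cause was not tested.

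The sign of each subunit's log2 fold change was checked for hypoxia against normoxia at each time. It was also checked for 6 days against the time before it in each oxygen condition. Among these comparisons, the log2 fold changes that turned sign were all uncalled ones of hypoxia against normoxia. Other comparisons, such as those between the earlier times, were not checked in this way. At 6 hr CCT2 came to -0.029 with quantile normalization and -0.014 with trimmed-mean centring. On leaving out 1 library at 6 hr, TCP1 ran from -0.056 to 0.25, CCT2 from -0.16 to 0.25, CCT3 from -0.0022 to 0.35, CCT5 from -0.085 to 0.37, CCT6A from -0.18 to 0.13 and CCT8 from -0.17 to 0.15, each with its lowest value without library 2 and its highest without library 1. At 6 days CCT2 came to -0.087 with quantile normalization, and on leaving out 1 library TCP1 ran from -0.093 (library 11) to 0.0039 (library 12), CCT2 from -0.076 (library 11) to 0.22 (library 12) and CCT4 from -0.12 (library 12) to 0.010 (library 11).

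The share of higher among all calls, as deposited, with quantile normalization and with trimmed-mean centring, was 94.4, 76.1 and 76.0% at 6 hr, 76.2, 57.9 and 55.8% at 48 hr, 56.6, 45.3 and 47.9% at 6 days and 68.3, 43.7 and 46.4% across times. No paired analysis was possible because the groups compared share fewer than 2 replicate numbers. Groups of 2 libraries limit the precision of every value.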
